A study of Mus musculus with 32 samples.

Results

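The 10 genes described here belong to Reelin signalling and radial migration. They were taken by symbol from the 32285 genes of the count tables: the ligand Reln, the receptors Vldlr and Lrp8, the adaptor Dab1, the microtubule-associated proteins Dcx and Dclk1, the dynein regulator Pafah1b1, the Cdk5 activator Cdk5r1 and the atypical small GTPases Rnd2 and Rnd3. The study profiled single cells of the mouse dorsal telencephalon by droplet RNA sequencing with 3′ counting, in 32 libraries of 1 embryo each. Libraries came from wild-type (WT) and heterozygous Chd8+/- embryos (het) of strain C57BL/6J at 4 stages, E12.5 and E14.5 (embryonic days), E16.0, and E17.5. Each of the 8 groups held 4 libraries, 2 from males (M1 and M2) and 2 from females (F1 and F2), collected as litter- and sex-matched WT and het pairs. Chd8 encodes a chromatin remodeller; how the mutant allele was made is not given in the sources used here. The medial wall with the hippocampal primordium had been cut away before dissociation, and the cortical hem, a known source of Cajal-Retzius cells, lies on that side.

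Reelin is a secreted glycoprotein made in the embryonic cortex chiefly by Cajal-Retzius cells of the marginal zone. It binds the lipoprotein receptors VLDLR and LRP8 (also called ApoER2) on radially migrating neurons, which leads Src-family kinases to phosphorylate the adaptor DAB1. The migrating neurons in turn rely on microtubule proteins (DCX, DCLK1), on LIS1 (the product of Pafah1b1) with dynein, on the kinase CDK5 with its activator p35 (the product of Cdk5r1), and on RND2 and RND3, atypical GTPases that act on the actin cytoskeleton. Rnd2 is a known target of the proneural factor NEUROG2.

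Cells were followed in 5 overlapping pools, each holding the retained cells with at least 1 unique molecular identifier (UMI) of a marker: Sox2 (radial glia and other progenitors, 54156 cells), Eomes (intermediate progenitors, 31828 cells), Neurod1 (newborn excitatory neurons, 34840 cells), Neurod6 (excitatory neurons, 84886 cells) and Gad2 (interneurons, 4811 cells). Levels are given per library as UMIs of the gene per 1000000 UMIs of the pool (CPM). The pools are mixtures: 15.6% ± 7.13 (SD, n = 8 libraries) of Sox2-detected cells also held a Neurod6 UMI at E12.5 and 45.5% ± 7.91 at E17.5, and 96.2% ± 1.52 of Neurod1-detected cells did so at E17.5. Of Neurod6-detected cells, 37.1% ± 11.1 also held a Sox2 UMI at E12.5 and 10.9% ± 1.46 at E17.5, and 47.0% ± 6.88 and 19.3% ± 3.28 held an Eomes UMI. Of Eomes-detected cells, 62.1% ± 2.84 also held a Neurod6 UMI at E12.5 and 83.3% ± 2.42 at E17.5. Only 2083 of them held Eomes alone of the 5 markers. An Eomes UMI was held by 58.3% ± 7.35 of Neurod1-detected cells at E12.5 and 32.8% ± 4.50 at E17.5. Of Gad2-detected cells, 61.0% ± 7.57 (n = 3 libraries) also held a Sox2 UMI at E12.5, 65.2% ± 6.74 (n = 8) at E14.5, 50.7% ± 5.79 at E16.0 and 45.9% ± 5.91 at E17.5, and 24.1% ± 6.64 to 42.6% ± 10.5 held a Neurod6 UMI. A change in a pool's level can therefore come from fewer cells of a type or from less RNA per cell, and these cannot be told apart. Cells detected by Sox2 carried 3257 to 3798 CPM of 8 radial glia markers in the WT libraries at E12.5, and cells detected by Neurod6 carried 1712 to 2337 CPM of 8 excitatory neuron markers beside 1598 to 2015 CPM of the radial glia list. The Gad2 pool had 20 or more cells in only 2 WT libraries and 1 het library at E12.5, and its remaining E12.5 libraries were not used.

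In all, 138226 cells were retained, 2399 to 6951 per library, with median depths per library of 4017 to 10727 UMIs. At E12.5 the het libraries were shallower than the WT libraries, with medians of 4166 to 10727 UMIs against 8762 to 10677, and het M2 was the deepest library of its group. Chd8 was lower in the het library in 15 of 16 pairs (39.5 to 83.3 CPM in WT and 19.5 to 70.4 CPM in het). At E17.5 the libraries WT M1, het M1 and het F1 stood apart from the other 5 over all genes, with correlations of 0.934 to 0.967 between the sets against 0.987 to 0.989 and 0.972 to 0.996 within them. Their library codes are p3, p6 and p2. WT F1 has the code p5, and the remaining E17.5 codes begin with c16 or c17. The set splits the F1 pair, so it is not balanced between the genotypes, and the labels name no batch. Any 2 libraries shared 6 to 60 barcodes, at most 1.17% of a library's cells.

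Cells with a UMI of the endothelial gene Cldn5 (1725 cells, 18 to 181 per library) served as a reference pool. How many of them also held a neuronal marker is not given here. Whether their UMIs came from outside, from a second cell in the droplet or from the cells themselves was not tested. Several of the 10 genes were measured there at levels near those of the Sox2 pool: Reln had WT means of 3.72, 12.01, 1.09 and 11.5 CPM over the 4 stages in Cldn5-detected cells and 3.04, 10.6, 3.76 and 14.4 CPM in Sox2-detected cells. For Dcx and Cdk5r1 the levels of the Cldn5-detected cells are given with those of the Sox2 pool, and no rise in that pool is called expression by progenitors. Cajal-Retzius marker cells, described with Reln, held 64.2% of the Reln UMIs of the WT Sox2 pool at E17.5 (199 of 310, in 20 cells). Most of these UMIs came from M2: by library it was 43 of 65, 152 of 186, 0 of 38 and 4 of 21 in M1, M2, F1 and F2.

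Proximal promoters were read from RefSeq for 8 of the 10 genes (14 windows of 300 bases, from 250 bases before a transcript start to 50 after it, build GRCm38.p6). They were searched on both strands for CAGATG, whose reverse complement is CATCTG, and for the palindrome CAGCTG, E-box forms bound by basic helix-loop-helix factors, among them NEUROD and NEUROG proteins. The genes lie on chr5:21884454-22344702 (Reln), chr19:27216484-27254231 (Vldlr), chr4:107802261-107876840 (Lrp8), chr4:103619359-104744844 (Dab1), chrX:143855842-143933311 (Dcx), chr3:55242364-55539068 (Dclk1), chr11:74673949-74724670 (Pafah1b1), chr11:80477023-80481184 (Cdk5r1), chr11:101464999-101471853 (Rnd2) and chr2:51130438-51149111 (Rnd3) of GRCm38. The windows printed here are those of the 3 genes that hold a match, the GTPase gene Rnd3 and the receptor genes Lrp8 and Vldlr, and that of Dcx, which holds none, each written 5′ to 3′ on the gene's strand with the E-box in capitals.
Rnd3, chr2:51149062-51149361, minus strand: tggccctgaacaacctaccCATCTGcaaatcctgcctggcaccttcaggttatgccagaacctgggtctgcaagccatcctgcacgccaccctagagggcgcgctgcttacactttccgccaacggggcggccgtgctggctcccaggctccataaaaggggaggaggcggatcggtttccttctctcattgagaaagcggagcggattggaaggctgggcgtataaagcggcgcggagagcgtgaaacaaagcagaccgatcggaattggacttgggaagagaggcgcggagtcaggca
Lrp8, chr4:107822911-107823210, plus strand: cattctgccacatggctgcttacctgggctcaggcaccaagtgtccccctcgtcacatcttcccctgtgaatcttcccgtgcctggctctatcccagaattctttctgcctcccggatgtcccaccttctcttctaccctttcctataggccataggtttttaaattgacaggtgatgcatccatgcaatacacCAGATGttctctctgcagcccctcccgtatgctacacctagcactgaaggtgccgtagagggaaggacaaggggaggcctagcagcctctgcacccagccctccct
Vldlr, chr19:27216770-27217069, plus strand: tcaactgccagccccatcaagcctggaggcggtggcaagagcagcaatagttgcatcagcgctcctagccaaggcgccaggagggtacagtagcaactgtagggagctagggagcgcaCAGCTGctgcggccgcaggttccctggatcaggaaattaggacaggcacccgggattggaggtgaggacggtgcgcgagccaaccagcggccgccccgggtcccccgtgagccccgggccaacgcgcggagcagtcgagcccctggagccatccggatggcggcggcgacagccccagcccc
Dcx, chrX:143933170-143933469, minus strand: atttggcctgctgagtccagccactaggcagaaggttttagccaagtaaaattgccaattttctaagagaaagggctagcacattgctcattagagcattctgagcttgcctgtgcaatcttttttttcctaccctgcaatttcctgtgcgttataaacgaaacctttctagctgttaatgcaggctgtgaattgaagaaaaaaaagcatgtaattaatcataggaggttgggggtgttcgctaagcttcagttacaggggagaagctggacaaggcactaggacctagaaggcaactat
CAGATG or CATCTG occurred in 17.2% of all 32851 promoter windows and in 3 of the 14 windows of these genes, 1 of Rnd3 and 2 of the 3 of Lrp8. CAGCTG occurred in 16.3% of all windows and in 1 of the 14, the Vldlr window shown. All 3 Lrp8 windows and the Vldlr window shown lie inside the gene spans given above. The Lrp8 window nearest the start of the gene holds neither motif.

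**Figure D1:**
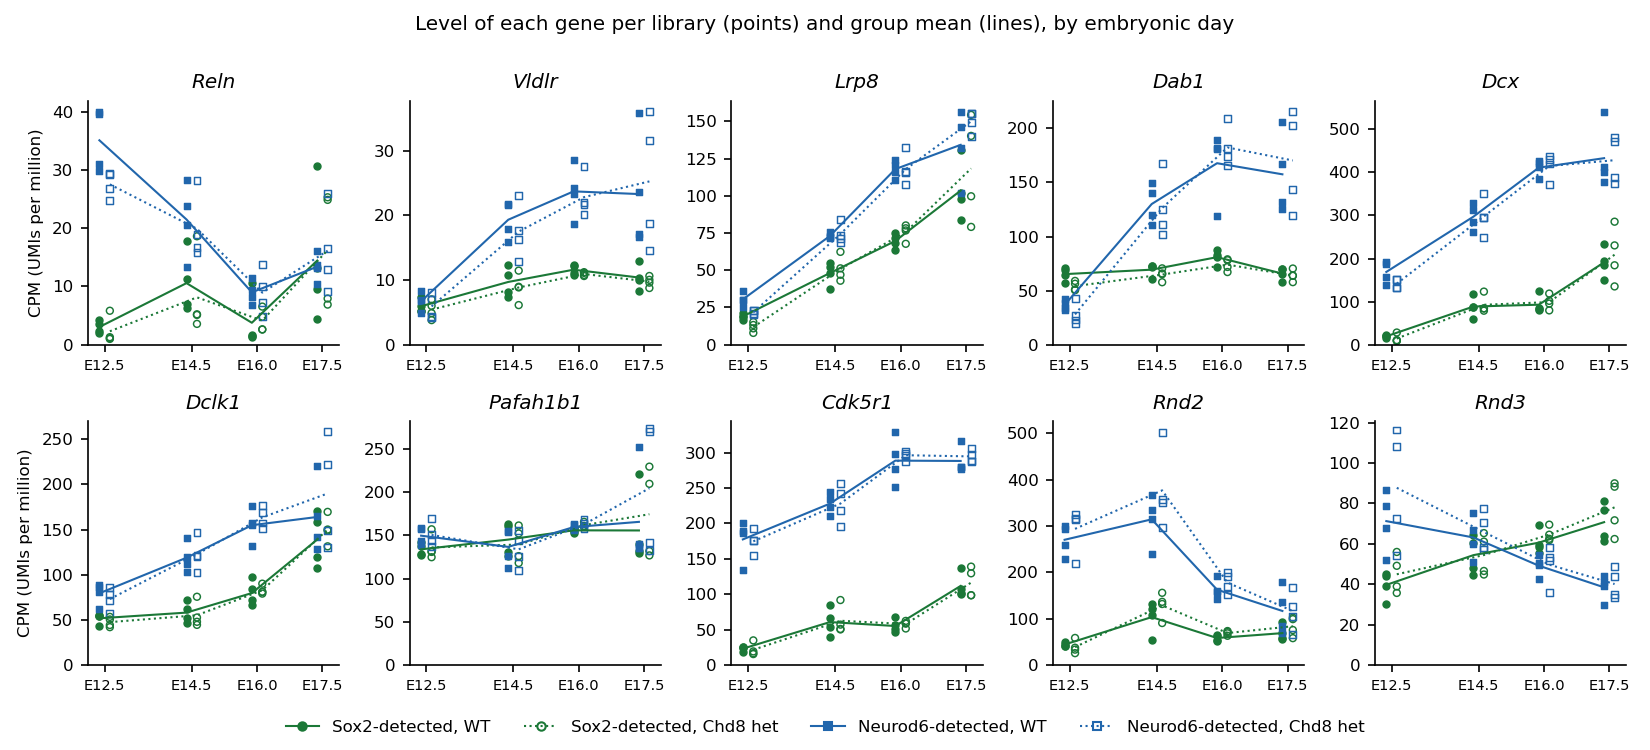
CPM of the 10 genes in Sox2-detected and Neurod6-detected cells (y axes, each gene on its own scale) against embryonic day (x axis), 1 point per library, filled for WT and open for het, with lines through the group means (solid WT, dotted het). Lrp8 and Dcx climb in both pools, Dab1 and Vldlr climb in the Neurod6 pool, and Rnd2 and Rnd3 descend there.

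Most Reln UMIs lay in a few cells. Cajal-Retzius marker cells, defined here as cells with a UMI of Trp73, Lhx1 or Lhx5, made up 1.03% of retained cells (1423 cells) and held 70.6% of all 22077 Reln UMIs. The 730 cells with 5 or more Reln UMIs held 72.5% of them, and 585 of these cells carried a Cajal-Retzius marker while 15 carried Gad2. The share of Reln UMIs lying in marker cells was 39.6% ± 3.89 (SD, n = 4) at E12.5 in WT and 83.5% at E17.5, with 35.0% ± 4.10 and 82.3% in het.

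In cells with a Trp73 UMI (874 cells, 7 to 79 per library), a p53-family gene expressed by Cajal-Retzius cells, Reln measured 444, 484, 376 and 213 CPM in WT M1, M2, F1 and F2 at E12.5. It measured 1769, 1612, 3526 and 2512 CPM at E14.5, and 2473 to 3089 CPM at E17.5. At E16.0 the pool held 7 to 12 cells per WT library and 15 to 19 per het library, and at E17.5 only 1 het library reached 20. The E12.5 libraries lay below every library of the later stages in both genotypes, with het means of 443, 2262, 3369 and 2943 CPM over the 4 stages. This pool was used for reference and no test was run on it. Cdk5r1 went the other way in the same cells, from 650 ± 164 CPM in WT at E12.5 to 268 ± 63.8 CPM at E17.5 (het 579 ± 87.5 and 258 ± 51.6). Dab1 was at 0 to 55.2 CPM there in all 32 libraries, resting on 0 to 22 UMIs per library.

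**Figure D2:**
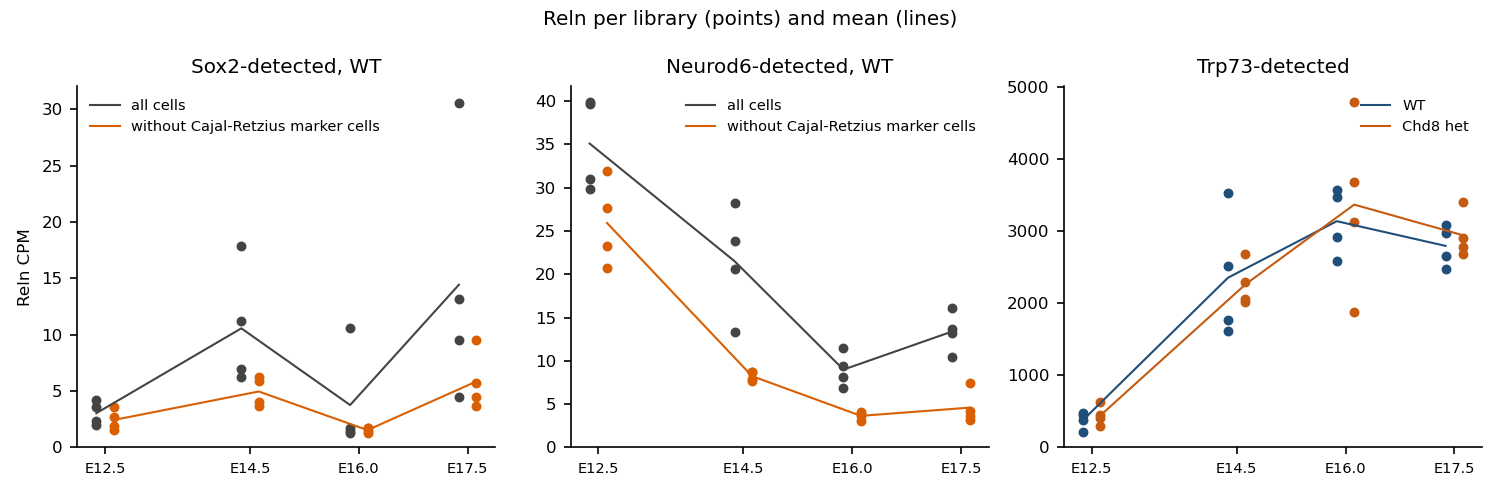
Reln in WT Sox2-detected and Neurod6-detected cells with and without Cajal-Retzius marker cells, and in Trp73-detected cells of both genotypes (y axes, CPM), against embryonic day (x axis), points for libraries and lines for means. Leaving out the marker cells lowers the E17.5 means of both neuronal and progenitor pools, and the Trp73-detected cells lie higher after E12.5.

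In Neurod6-detected cells Reln read 39.7, 29.8, 39.9 and 31.0 CPM in WT at E12.5 and 10.4, 16.1, 13.7 and 13.2 CPM at E17.5. It fell by 1.47 on the log2 scale (SE 0.26, adjusted p = 2.3e-05, edgeR's quasi-likelihood test with Benjamini-Hochberg adjustment over all genes). The summed level of 7 Cajal-Retzius markers in the pool fell with it, from 97 to 179 CPM at E12.5 to 14 to 21 CPM at E17.5, and its part in the result was not tested as such. Without the marker cells, an alternative chosen after seeing the data, WT Reln went from 25.9 to 4.59 CPM, a log2 change of -2.57. In Sox2-detected cells Reln was low at E12.5 (2.37, 4.18, 3.57 and 2.02 CPM) and rose to 13.2, 30.6, 9.49 and 4.48 CPM at E17.5 (log2 change 2.12, SE 0.64, adjusted p = 0.0052 by edgeR). Without the marker cells this was 1.08, and without the WT M2 library of E17.5 it was 1.39 and no longer passed. In Eomes-detected cells the WT change was 0.22 (SE 0.54) and did not pass, and it was -1.60 and passed without the marker cells. In Gad2-detected cells Reln rose from 5.63 and 7.22 CPM in the 2 WT libraries at E12.5, each resting on 3 UMIs, to 14.46 to 47.0 CPM at E17.5 (log2 change 2.35, SE 0.78, adjusted p = 0.049 by edgeR). Without the marker cells the 2 libraries of E12.5 read 5.63 and 0 CPM, those of E17.5 10.7 to 40.5 CPM, and the change was 2.76 and passed. The call was lost at a marker threshold of 2 UMIs, in cells thinned to 2000 UMIs, without the 3 libraries that stood apart at E17.5, and in most of the 27 fits that left out 1 library, either WT library of E12.5 among them.

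Lrp8 rose in each of the 5 pools, though in Gad2-detected cells (log2 change 1.02, SE 0.27) the call was lost without WT M1 or F2 of E17.5 or either WT library of E12.5, without the 3 libraries that stood apart at E17.5 (0.93), in thinned cells, and at a marker threshold of 2 UMIs (0.40). In Sox2-detected cells it measured 21.05, 16.7, 19.6 and 18.6 CPM in WT at E12.5 and 131, 83.4, 98.1 and 102 CPM at E17.5, a log2 change of 2.28 (SE 0.16, adjusted p = 5.9e-13, edgeR's quasi-likelihood test). The 4 stage means went up in order, 19.0, 48.1, 69.6 and 104 CPM. Eomes-detected cells had the highest Lrp8 level of the 5 pools at E14.5 and after, 37.6, 102, 154 and 184 CPM over the 4 stages in WT (log2 change 2.16, SE 0.10). Neurod6-detected cells went from 36.1, 25.3, 30.3 and 30.003 CPM to 146, 132, 102 and 156 CPM (2.05, SE 0.10), and Neurod1-detected cells rose alike (2.07, SE 0.11). In Sox2-detected cells with none of the other 4 markers the rise was smaller, from 13.95 ± 1.47 to 37.8 ± 1.27 CPM (1.25). Cells with a UMI of the endothelial gene Cldn5 held more Lrp8 than any of the 5 pools, 56.4 ± 6.97 CPM at E12.5 and 412 ± 142 CPM at E17.5 in WT. Annotated antisense genes overlap Lrp8 (Lrp8os1, Lrp8os2), Reln (Gm10475, Gm16110) and Dclk1 (Gm42609), Vat1 overlaps Rnd2 on the other strand, and whether the counting used strand is not given in the sources used here.

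Vldlr, the other Reelin receptor, rose in Neurod1-detected and Neurod6-detected cells and did not reach 2-fold in the other 3 pools. In Neurod6-detected cells it read 8.29, 4.93, 6.84 and 6.82 CPM in WT at E12.5 and 35.9, 17.1, 23.6 and 16.7 CPM at E17.5 (log2 change 1.70, SE 0.24, adjusted p = 4.8e-07 by edgeR). Most of that difference was already there at E14.5, where the mean was 19.3 ± 2.86 CPM (1.503 against E12.5). In Sox2-detected cells the WT means were 5.95, 9.71, 11.6 and 10.4 CPM (0.65, SE 0.16), and the course in the Neurod6 pool exceeded it by 1.16 (SE 0.14).

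Dab1, the adaptor that both receptors signal through, went from lower to higher in Neurod6-detected than in Sox2-detected cells. In Neurod6-detected cells it read 38.9, 34.3, 41.9 and 31.8 CPM in WT at E12.5, 150, 140, 120 and 110 CPM at E14.5, and 206, 132, 167 and 126 CPM at E17.5. It rose by 2.01 on the log2 scale from E12.5 to E17.5 (SE 0.19, adjusted p = 5.1e-10, edgeR's quasi-likelihood test), with 1.80 of it between E12.5 and E14.5. In Sox2-detected cells the WT means stayed between 65.2 and 80.9 CPM, with a log2 change of -0.15 (SE 0.08) from the first stage to the last. Dab1 was thus lower in Neurod6-detected than in Sox2-detected cells at E12.5 (log2 difference -0.94, SE 0.10) and higher at E14.5, E16.0 and E17.5 (0.94, 1.15 and 1.32). The course difference between the pools was 2.27 (SE 0.14). Among cells with a single one of the 5 markers, Sox2-detected cells had 70.3 ± 6.89 CPM at E12.5 and 89.5 ± 6.74 CPM at E17.5 in WT, and Neurod6-detected cells 63.1 ± 12.9 and 236 ± 37.3 CPM, so there the pools were close at E12.5. In Eomes-detected cells Dab1 stood below the Sox2 pool at each stage, by 1.12, 1.02, 0.89 and 0.94 on the log2 scale, of which the E12.5 and E14.5 differences passed 2-fold. In Gad2-detected cells WT Dab1 was 22.2 to 36.9 CPM on average from E14.5 on, below the Neurod6 pool by 2.46, 2.10 and 2.32 log2 units.

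**Figure D3:**
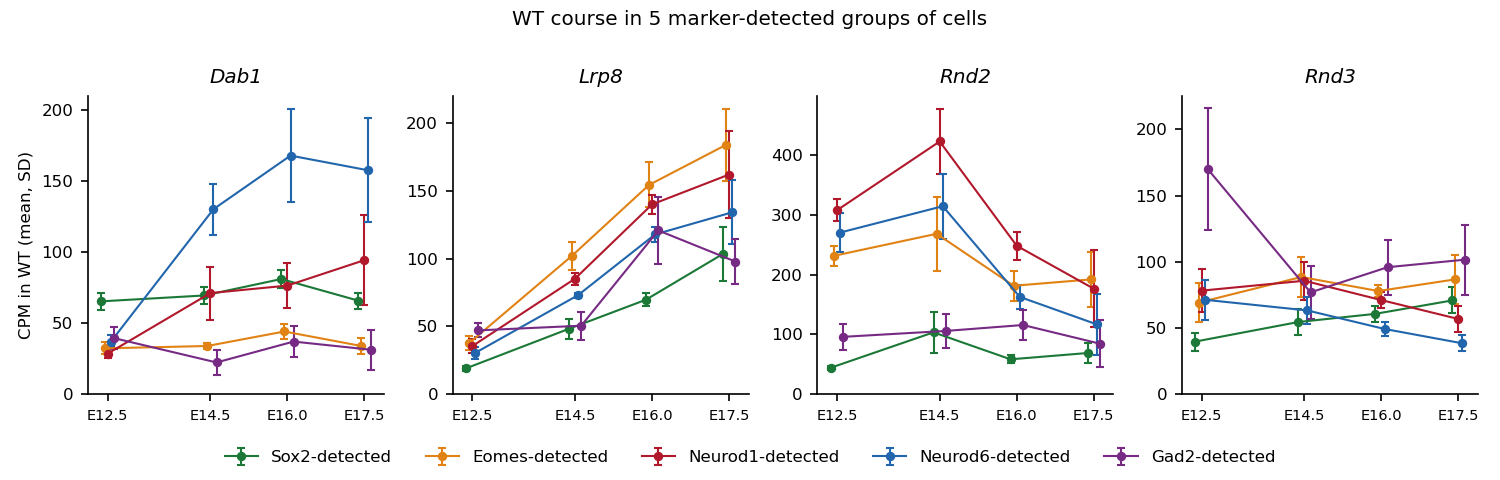
WT mean ± SD of Dab1, Lrp8, Rnd2 and Rnd3 (y axes, CPM) against embryonic day (x axis) in the 5 pools, n = 4 libraries except Gad2 at E12.5 with 2. Dab1 climbs in the Neurod6 and Neurod1 pools, Rnd2 declines in the neuronal pools, and Rnd3 declines in the Neurod6 pool while the Sox2 pool goes up.

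Dcx, a microtubule-stabilising protein of migrating neurons, rose in all 5 pools, though in Gad2-detected cells (log2 change 1.18) the call was lost without WT F1 of E12.5 (0.83) and in cells thinned to 2000 UMIs (0.93). In Eomes-detected cells (1.27, SE 0.12) it was lost with Eomes as the single detected marker (0.11) and at a marker threshold of 2 UMIs (0.95). In Sox2-detected cells it read 22.9, 20.1, 19.4 and 15.1 CPM in WT at E12.5 and 233, 194, 186 and 151 CPM at E17.5 (log2 change 3.13, SE 0.27, adjusted p = 4.5e-11 by edgeR). The same libraries held 320 to 395 CPM of 8 excitatory neuron markers at E12.5 and 656 to 860 at E17.5, and 41.3 to 70.8 against 164 to 599 CPM of 8 interneuron markers. Summed levels of 4 oligodendrocyte precursor markers went from 1.12 to 1.59 CPM at E12.5 to 198 to 438 CPM at E17.5. The part of these cell types in the Sox2-pool changes was not tested. Among Sox2-detected cells with none of the other 4 markers Dcx was at 5.13 ± 1.15 and 73.1 ± 22.2 CPM. Cldn5-detected cells read 20.9 ± 9.76 and 178 ± 24.3 CPM at these stages, beside Sox2-pool means of 19.4 ± 3.24 and 191 ± 33.8 CPM, so the means differed by less than the spread between libraries. In Neurod6-detected cells the WT means were 169, 297, 411 and 433 CPM (1.27, SE 0.13). That call rests on the 2-fold limit: the change was 0.81 at a marker threshold of 2 UMIs and 0.79 in cells thinned to 2000 UMIs.

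Dclk1, a kinase related to Dcx, rose in Sox2-detected cells from 53.7, 42.7, 54.6 and 55.4 CPM in WT at E12.5 to 171, 158, 107 and 120 CPM at E17.5 (log2 change 1.26, SE 0.14, adjusted p = 8.8e-09 by edgeR). In Neurod6-detected cells the WT means were 79.4, 119, 155 and 164 CPM, and the change of 0.96 (SE 0.16) passed the adjusted p but not 2-fold. Pafah1b1, the dynein regulator, had the smallest log2 changes of the 10 genes in the Sox2 and Neurod6 pools. Its WT stage means lay between 134 and 156 CPM in Sox2-detected cells and between 137 and 166 CPM in Neurod6-detected cells, with log2 changes of 0.05 in both (SE 0.15 and 0.17). At E17.5 Pafah1b1 followed the 3 libraries that stood apart: in Neurod6-detected cells WT M1, het M1 and het F1 read 252, 270 and 274 CPM, and the other 5 libraries 132 to 141 CPM. Without these 3 the WT change was -0.23 in the Neurod6 pool and -0.20 in the Sox2 pool.

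Cdk5r1, which encodes the p35 activator of the kinase CDK5, rose in Sox2-detected cells from 25.1, 23.6, 24.6 and 18.5 CPM in WT at E12.5 to 99.8, 137, 102 and 108 CPM at E17.5 (log2 change 2.12, SE 0.21, adjusted p = 5.6e-10 by edgeR). The steps from E12.5 to E14.5 (1.26) and from E16.0 to E17.5 (1.11) passed. Cldn5-detected cells read 20.6 ± 3.13 and 123 ± 33.4 CPM at these stages, beside Sox2-pool means of 22.9 ± 3.02 and 112 ± 17.3 CPM. In Neurod6-detected cells it was higher than in Sox2-detected cells at each stage, by 2.94, 1.93, 2.37 and 1.38 log2 units, and its own change with stage was 0.62 (SE 0.11) from a mean of 177 ± 29.7 CPM.

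Of the GTPase genes, Rnd2 fell in Neurod6-detected cells and Rnd3 was lower there at E17.5 without reaching 2-fold. In Neurod6-detected cells Rnd2 read 294, 229, 258 and 300 CPM in WT at E12.5, 335, 316, 239 and 367 CPM at E14.5, 191, 143, 157 and 159 CPM at E16.0, and 68.4, 135, 83.6 and 179 CPM at E17.5. The log2 change from E12.5 to E17.5 was -1.30 (SE 0.26, adjusted p = 7.4e-05, edgeR's quasi-likelihood test), and of the steps only E14.5 to E16.0 passed (-1.10). The summed level of 6 intermediate progenitor markers in the pool went from 1694 to 2199 CPM at E12.5 to 686 to 1069 CPM at E17.5, and its part in the result was not tested. Among cells with Neurod6 as the single detected marker Rnd2 went from 263 ± 34.4 to 63.4 ± 33.6 CPM (-2.13). In Neurod1-detected cells, which held more Rnd2 than any other pool through E16.0, WT means were 308, 423, 248 and 176 CPM and the change of -0.92 (SE 0.20) stayed under 2-fold. In Sox2-detected cells it was 0.47 (SE 0.22, adjusted p = 0.065 by edgeR) and turned to -0.55 among cells with Sox2 as the single marker, where all 4 WT means were 10.2 to 16.6 CPM.

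Rnd3 in Neurod6-detected cells went from 86.9, 52.0, 78.5 and 67.6 CPM in WT at E12.5 to 44.1, 41.1, 29.7 and 38.9 CPM at E17.5. The log2 change of -0.98 (SE 0.19, adjusted p = 6.5e-05 by edgeR) fell just short of 2-fold, and the het change of -1.40 passed. With Neurod6 as the single detected marker the WT means were 61.2, 40.7, 20.98 and 12.7 CPM, a change of -2.32 that passed. In Sox2-detected cells WT Rnd3 went from 39.7 ± 6.83 to 70.7 ± 9.83 CPM (0.67, SE 0.15). The course difference between the pools was -1.73 (SE 0.09). Gad2-detected cells held more Rnd3 than Neurod6-detected cells at E12.5, E16.0 and E17.5, by 1.32, 1.13 and 1.41 log2 units, with WT levels of 62.5 to 118 CPM at E17.5.

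Between E12.5 and E17.5 in WT, 5 of the 10 genes passed in Sox2-detected cells (all 5 higher), 2 in Eomes-detected cells (both higher), 5 in Neurod1-detected cells (4 higher, 1 lower), 6 in Neurod6-detected cells (4 higher, 2 lower) and 3 in Gad2-detected cells (all 3 higher). Over all genes tested in the same pools 16.7%, 10.5%, 13.3%, 15.8% and 5.8% passed as higher and 6.63%, 7.01%, 9.14%, 10.8% and 2.27% as lower. The median log2 change of the 10 genes was 0.97, 0.21, 0.57, 0.79 and 0.22, beside 0.049, 0.016, 0.032, 0.040 and 0.067 over all genes. Stages came from different litters, so litter or run and stage cannot be told apart. In het the counts were 5, 2, 5, 8 and 3, against 29.5%, 22.2%, 28.1%, 32.5% and 9.29% of all genes. The Gad2 count sets E17.5 against 1 het library of E12.5, which is assumed to vary like the other groups. The 2 further genes in het Neurod6-detected cells were Rnd3 and Dclk1 (1.10). The test of the difference between the 2 courses passed for no gene of the 10 in any pool and for 0% of all genes by edgeR; at an unadjusted p under 0.05 it held 1 gene, Lrp8, in each of the first 4 pools, where 13.1%, 9.99%, 10% and 11.5% of all genes were.

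Most changes came in the first step, which spans the longest time. The share of all genes that passed was also largest in that step in each of the 5 pools. From E12.5 to E14.5 in WT, 5 genes passed in Sox2-detected cells (Dcx, Reln, Cdk5r1, Lrp8 and Rnd2, by 2.06, 1.66, 1.26, 1.21 and 1.10 on the log2 scale, against 11.7% of all genes; without Cajal-Retzius marker cells the Reln means went from 2.43 to 4.96 CPM), 1 in Eomes-detected cells (Lrp8, 1.39, against 8.62%), 3 in Neurod1-detected cells (Dab1 and Lrp8 higher by 1.28 and 1.23 and Reln lower by a log2 change of -1.27, against 13%) and 3 in Neurod6-detected cells (Dab1, Vldlr and Lrp8, all higher, against 14.6%). In Gad2-detected cells 5 passed (Reln, Dcx, Dclk1 and Cdk5r1 higher and Rnd3 lower, against 11%). These set E14.5 against 2 WT libraries of E12.5 with 73 and 43 cells, where Reln rested on 3 UMIs each. Fits that left out 1 library were not made for this step. From E14.5 to E16.0 Reln fell in the Eomes, Neurod1 and Neurod6 pools by 2.92, 2.61 and 1.41, where 2.06%, 2.53% and 2.74% of all genes passed. Marker cells held 76.8% of the WT Eomes-pool Reln UMIs at E14.5 (30 cells) and 50.6% of the Neurod1-pool ones (28 cells). Without them the means went from 4.75 to 1.84 CPM, from 8.51 to 2.86 CPM and, in the Neurod6 pool, from 8.23 to 3.65 CPM. In the same step Rnd2 fell in the Neurod6 pool, Lrp8 rose in the Gad2 pool by 1.23 (4.88% of all genes), while the share of its WT cells with an Eomes UMI went from 9.34% ± 3.17 to 28.5% ± 11.7 and with a Neurod6 UMI from 24.1% ± 2.28 to 43.8% ± 10.9, whose part was not tested, and no gene of the 10 passed in the Sox2 pool (3.08% of all genes; at an unadjusted p under 0.05, 4 of the 10 and 23.8% of all genes). From E16.0 to E17.5 Reln rose in the Sox2, Eomes and Neurod1 pools by 2.05, 2.88 and 2.09, against 5.53%, 1.82% and 1.66% of all genes, and in the Sox2 pool Dcx (1.12) and Cdk5r1 (1.11) rose too. At E17.5 marker cells held 313 of 373 Reln UMIs in the WT Eomes pool (21 cells) and 174 of 248 in the Neurod1 pool (19 cells). Without marker cells the means of the Sox2, Eomes and Neurod1 pools went from 1.54 to 5.85, from 1.84 to 3.5002 and from 2.86 to 3.59 CPM. No gene of the 10 passed in this step by edgeR in the Neurod6 pool (2.33% of all genes; at an unadjusted p under 0.05, 2 of the 10 and 19.8% of all genes) or in the Gad2 pool (0.00958% of all genes; 0 of the 10 and 9.68%).

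Across pools of the same libraries, Neurod6-detected cells exceeded Sox2-detected cells past 2-fold for 4, 6, 6 and 4 of the 10 genes at the 4 stages and were lower for none, while 11.6%, 12.2%, 15% and 10.8% of all genes were higher and 5.5%, 11.9%, 13.2% and 13% lower. Dcx and Cdk5r1 were higher at every stage, Vldlr from E14.5 on and Rnd2 up to E16.0. Pools share cells and embryos, so p-values of such comparisons are too small and sizes are given in their place. The SEs printed with differences between pools are too small for the same reason. In Eomes-detected against Sox2-detected cells Rnd2 was higher at every stage (2.46, 1.38, 1.60 and 1.41), and the counts of genes past 2-fold were 5, 5, 3 and 1 against 12.3%, 9.3%, 10.1% and 8.84% of all genes. Neurod1-detected against Eomes-detected cells held 1, 3, 1 and 2 such genes (2.51%, 11.8%, 11.1% and 11.1% of all genes), among them Dab1 and Vldlr at E14.5 and E17.5. Neurod6-detected against Neurod1-detected cells held 0, 0, 2 and 0 (1.24%, 3.47%, 3.87% and 1.19% of all genes), Dab1 (1.17) and Reln (1.46) being higher at E16.0. Gad2-detected against Neurod6-detected cells held 3, 2, 2 and 3 (5.13%, 11.4%, 10.1% and 11.2% of all genes), with Rnd2 lower at E12.5 and E14.5 (-1.86 and -1.77). The course differed between Neurod6-detected and Sox2-detected cells for 7 of the 10 genes, 2 of them higher in the Neurod6 pool, Dab1 and Vldlr, and 5 lower, against 3.79% and 11.3% of all genes.

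The study's main question is the effect of Chd8 heterozygosity. Averaged over the 4 stages, none of the 10 genes differed between het and WT in any pool by edgeR's quasi-likelihood test, while 0.535%, 0.297%, 0.284%, 0.24% and 0% of all genes did in the Sox2, Eomes, Neurod1, Neurod6 and Gad2 pools. DESeq2 gave 0 as well, and neither of these fits used the matched pairs. By edgeR an unadjusted p under 0.05 was reached once in the Sox2 and once in the Eomes pool, both times by Dab1 (8.73% and 8.81% of all genes). The averaged log2 differences of the 10 genes ran from -0.12 to 0.18 in Sox2-detected cells and from -0.07 to 0.14 in Neurod6-detected cells, with medians of -0.01 in both. Dab1 was lower in het in 13 of 16 pairs in Sox2-detected cells (-0.12, adjusted p = 0.23 by edgeR) and in 13 of 16 pairs in Eomes-detected cells. In the Neurod1, Neurod6 and Gad2 pools Dab1 was lower in 9 of 16, 8 of 16 and 3 of 12 pairs. Rnd2 was higher in het in 15 of 16 pairs in Neurod1-detected cells (0.18), without passing. In the Sox2, Eomes, Neurod6 and Gad2 pools Rnd2 was higher in 11 of 16, 11 of 16, 10 of 16 and 6 of 12 pairs. No background of pair counts over all genes stands beside these or those below. The test of whether the difference changed with stage passed for none of the 10 genes and for 0% of all genes in each pool; Lrp8 alone had an unadjusted p under 0.05 there, in the first 4 pools.

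**Figure D4:**
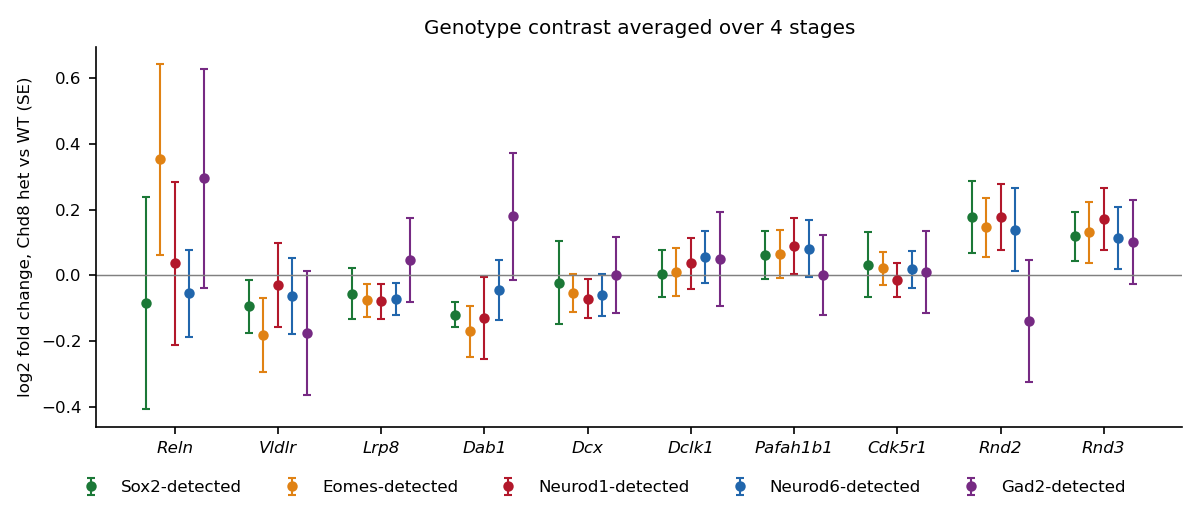
Het minus WT log2 difference averaged over the 4 stages (y axis, error bars ± 1 SE) for each of the 10 genes (x axis) in the 5 pools (colours). Reln has the widest error bars in the Sox2 and Gad2 pools, and no difference passed at an adjusted p of 0.05.

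Lrp8 at E12.5 was the only single-stage difference of the 10 genes that passed by edgeR. At an unadjusted p under 0.05 were 2, 1 and 2 of the 10 genes in the Sox2, Eomes and Neurod1 pools at E12.5. Over all genes the shares there were 17.9%, 13.7% and 13.1%, with 12.8% in the Neurod6 pool. From E14.5 on none passed in any pool, where 0% of all genes did except in the Sox2 pool at E16.0 (0.0217%) and the Eomes pool at E16.0 and E17.5 (0.00761% each). An unadjusted p under 0.05 was reached at these stages only by Reln, in the Eomes pool at E16.0 and the Gad2 pool at E17.5 (1.73% and 2.91% of all genes). In Eomes-detected cells Lrp8 at E12.5 read 44.3, 31.3, 37.0 and 37.9 CPM in WT M1, M2, F1 and F2 and 26.1, 26.1, 25.3 and 24.6 CPM in het. This was a log2 difference of -0.48 (SE 0.11, adjusted p = 0.048, edgeR's quasi-likelihood test), where 0.297% of all genes passed. In Sox2-detected cells Lrp8 read 21.05, 16.7, 19.6 and 18.6 CPM in WT and 13.2, 15.2, 7.90 and 10.9 CPM in het (-0.58, SE 0.16, adjusted p = 0.054 by edgeR, with 1.11% of all genes passing). The difference was -0.52 (adjusted p = 0.055 by edgeR, 0.0154% of all genes) in Neurod1-detected cells and -0.38 (adjusted p = 0.11, 0.00685%) in Neurod6-detected cells. Het was lower in 4 of 4 pairs in each of these 4 pools, which share cells and embryos. At E12.5 a Sox2 UMI was held by 54.2% ± 1.54 of Eomes-detected cells in WT and 42.9% ± 10.5 in het. For Neurod6-detected cells the shares were 41.9% ± 4.59 and 32.3% ± 14.3. Their part in the Lrp8 difference was not tested. Rnd3 was higher in het in 4 of 4 pairs in the same pools, by 0.27, 0.35, 0.44 and 0.41, without passing (adjusted p = 0.33, 0.42, 0.30 and 0.37 by edgeR).

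With the litter pair as a replicate block, Lrp8 passed in all 4 pools (adjusted p = 0.0078 in Sox2-, 0.016 in Eomes-, 0.030 in Neurod1- and 0.038 in Neurod6-detected cells by edgeR), and it did so with DESeq2 (0.012, 0.0055, 0.0046 and 0.023). In those fits far more genes passed in all: 15.2%, 5.85%, 4.99% and 4.75% of all genes with the block and 6.57%, 3.63%, 2.55% and 2.45% with DESeq2. The M1, F1 and F2 pairs of E12.5 share the code prefix c10, so the pairs may not be separate litters. Each cell was then thinned to 2000 UMIs, which sets the same depth per cell but leaves out 464 het cells and 0 WT cells of E12.5 and does not match the number of cells in a pool. The differences were -0.45, -0.36, -0.23 and -0.19 and none passed (adjusted p = 0.29, 0.53, 0.80 and 0.76 by edgeR; at most 0.00946% of all genes passed). The call in Eomes-detected cells stood close to the threshold and was lost in 26 of 32 fits that left out 1 library, with adjusted p by edgeR from 0.017 to 0.26; without het F1 of E12.5 it was 0.26. Leaving out het M2 of E12.5, the deepest het library there, Lrp8 passed in all 4 pools, and a second gene passed in each: Dcx (-0.90) in Sox2-, Dab1 (-0.59) in Eomes-, and Rnd3 in Neurod1- and Neurod6-detected cells (0.60 and 0.61). The share of all genes that passed was not kept for fits that left out 1 library, so these counts have no background beside them. From E14.5 on the differences of Lrp8 in the 4 pools lay between -0.0030 and 0.17.

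**Figure D5:**
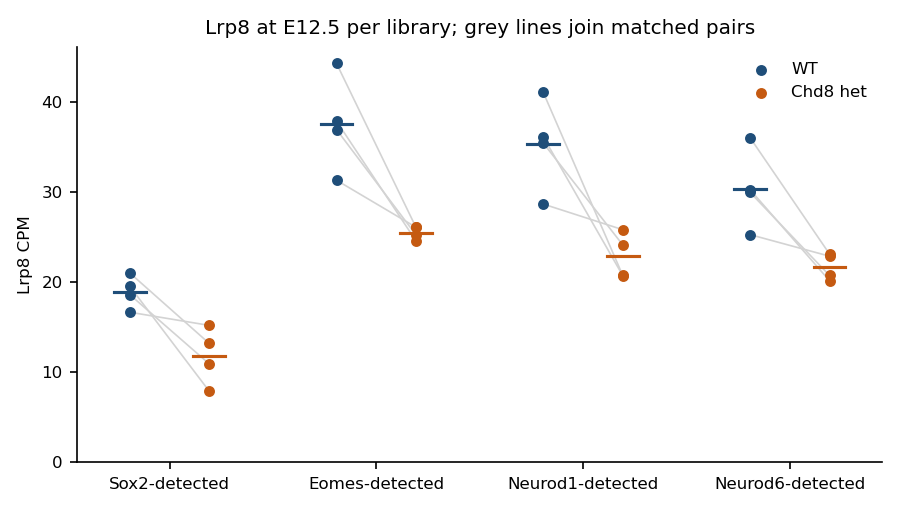
Lrp8 CPM (y axis) at E12.5 in WT and het libraries (x axis) of 4 pools, 1 point per library, lines joining litter- and sex-matched pairs. The line goes down from WT to het in each of the 4 pairs of every pool.

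Beyond the 10 genes, 64 genes of 4 lists were followed: Reelin receptors and intracellular signalling (24), LIS1, dynein and CDK5 (17), microtubule and actin proteins of migrating neurons (10), and small GTPases with their regulators and the factors upstream of the Rnd genes (13). From E12.5 to E17.5 in WT, 8 of 64 rose and none fell in Sox2-detected cells, where 16.7% of all genes passed as higher and 6.63% as lower. In Neurod6-detected cells 5 rose and 2 fell, against 15.8% and 10.8% of all genes, so the lists held no larger share of passing genes than the background in either pool. In the Neurod6 pool Dync1i1, a dynein intermediate chain, rose by 5.12 on the log2 scale, the microtubule protein gene Mapt by 2.02 and Zbtb18, a repressor acting on Rnd2, by 1.78, while Nde1, a LIS1 partner, fell by 1.49 and Socs6, which takes part in DAB1 turnover, fell by 1.08. The Dync1i1 change rests on a low start, 0.50 to 1.29 CPM in WT at E12.5, and its E17.5 libraries were spread from 14.9 to 64.3 CPM. In the Sox2 pool Mapt (3.95) and Zbtb18 (1.93) were among those that rose. Neurog2, a known activator of Rnd2, fell by 1.15 in Neurod1-detected cells, where 9.14% of all genes passed as lower. In Neurod6-detected cells its WT mean went from 348 to 203 CPM without passing, and in Sox2-detected cells from 300 to 457 CPM. The median log2 change of the 4 lists in Sox2-detected cells was 0.22, -0.02, 0.48 and 0.29, beside 0.049 over all genes. Between het and WT averaged over stages none of the 64 passed in any pool, and at E12.5 the dynein cofactor gene Nudc was higher in het in Sox2-detected cells (0.32, adjusted p = 0.043 by edgeR), 1 of 64 genes where 1.11% of all genes passed and het libraries were shallower.

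As a description, the genes whose log2(CPM + 1) followed each of the 10 most closely over the 40 group means of pool, stage and genotype were found among 8490 genes with a mean of at least 10 CPM. The points share libraries and cells. Cdk5r1 was followed by Scrt1 (r = 0.99) and Rufy3 (0.99), Dcx by Mtus1 (0.98), Lrp8 by Trim2 (0.97), Dclk1 by Nrxn2 (0.96), Rnd2 by Cotl1 (0.94), Vldlr by Enox1 (0.91) and Dab1 by Fat4 (0.91). The closest genes were less alike for Pafah1b1 (Nfe2l1, 0.88), Rnd3 (Ska2, 0.76) and Reln (Pnmal2, 0.75). Among the 10 genes themselves Dcx and Cdk5r1 were most alike (0.93), and Dab1 and Rnd3 least (-0.60).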

How the data were processed

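Single-cell 3′ RNA libraries of 32 mouse embryos were analysed. The authors deposited whole-number UMI counts per gene and cell, made with Cell Ranger, STAR 2.7.9a, STARsolo and the mm10 genome, per the submitters' processing notes, which give these names without roles. Of 145082 barcodes, cells with at least 1000 UMIs, 500 genes and at most 10% mitochondrial counts were kept (143697). Simulated doublets were scored with 30 components and 20 neighbours, and 5471 cells were removed at a rate of 0.8% per 1000 cells (1.96 to 5.91% per library), leaving 138226. Libraries held 14710694 to 66499864 UMIs.

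Raw counts were summed per library and marker-detected pool. In the 5 tested pools, libraries with under 20 cells were left out. Trp73-detected cells were described in all 32 libraries, including those with under 20 such cells. Sums were tested with edgeR 4.0.16 (limma 3.58.1, R 4.3.3; TMM scaling, filterByExpr, quasi-likelihood F test) with 1 coefficient per stage and genotype, over all genes. The fit across pools had the library as a block and estimated the dispersion trend from the 5% most abundant genes. A gene passed at an adjusted p under 0.05, and for stages and pools also at 2-fold or more. Means are given with the SD over libraries, and p-values of comparisons within a pool measure the spread between embryos. Counting error per library is small beside that spread except where UMIs are few. UMIs are not given at each value. Reln in WT Eomes-detected cells at E16.0, for example, rested on 20, 9, 9 and 53 UMIs in M1, M2, F1 and F2.

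Same-number WT and het libraries are litter-matched per the labels: 16 of 16 pairs deviated together from their group means (r from 0.155 to 0.877). Of the 16 WT libraries, 13 were most like the het library of their own number. At E12.5, WT M1 and F1 were more like het M2 and F2 (0.309 and 0.332) than like het M1 and F1 (0.155 and 0.284). Alternatives were DESeq2 1.42.0, no low-count filter, doublets kept, 2 marker UMIs, exclusive pools, cells thinned to 2000 UMIs, a replicate block, WT libraries only (pools), each library left out, and 3 sets chosen after seeing the data (without Cajal-Retzius marker cells, without 3 libraries of E17.5, without E12.5). Gene identifiers matched GENCODE M21 on GRCm38 for 32235 of 32285 genes, which gave coordinates. The 10 genes, the lists and the markers were chosen with earlier results of these data known. All 10 genes are named. Of the listed pathway genes, up to 3 passing genes per direction with the largest change and a mean log2 CPM of at least 3 could be named; 1 such gene is not reported here. Likeness used a pseudocount of 1. Scripts were tested on simulated data.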

Additional observations from a re-analysis of the deposited data

Results flagged for a closer look

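A sample was picked out where the highest or lowest of 4 libraries of a group lay far from the other 3 by Dixon's ratio. This held for 29 of 380 groups of gene, pool, stage and genotype (7.63%), and chance picks out about 1 in 20. Pafah1b1 of WT M1 at E17.5 was the highest value in all 5 pools: 221 CPM in Sox2- (others 130 to 140), 219 in Eomes- (127 to 138), 243 in Neurod1- (130 to 139), 252 in Neurod6- (135 to 140) and 219.98 in Gad2-detected cells (120 to 136). WT M1 is 1 of the 3 libraries that stood apart at E17.5, and it also held the most Rnd3 in Eomes-detected cells, 115 CPM against 75.0 to 80.0.

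Het M2 at E12.5, the deepest het library of that stage, read 5.82 CPM of Reln (others 0.991 to 1.29) and 28.2 CPM of Dcx (8.84 to 10.6) in Sox2-detected cells. The same library read 6.00 CPM of Vldlr in Eomes-detected cells (3.57 to 3.84) and 219.5 CPM of Rnd2 in Neurod6-detected cells, the lowest of its group (314 to 326).

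Sox2-detected cells gave 8 further values. Reln read 18.6 CPM in het F1 of E14.5 (others 3.57 to 5.21) and 10.6 in WT M2 of E16.0 (1.30 to 1.71). Dcx read 123 CPM in het M1 of E14.5 (78.9 to 84.3) and 125 in WT F1 of E16.0 (79.5 to 85.3). Cdk5r1 read 91.6 CPM in het M1 of E14.5 (50.1 to 56.9). Pafah1b1 read 166 CPM in het M2 of E16.0, in a group that was otherwise tight (160.2 to 161). Dab1 was low in WT F2 of E14.5, at 60.5 CPM (71.8 to 72.6), and Dclk1 in WT M2 of E12.5, at 42.7 CPM (53.7 to 55.4).

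In the other excitatory-lineage pools Dab1 was low in het F2 of E14.5 in Eomes-detected cells, at 24.1 CPM (34.3 to 34.4), and in WT F2 of E16.0 in Neurod6-detected cells, at 119 CPM (181 to 190). Rnd2 was high in WT M1 of E16.0 in Neurod1-detected cells, at 284 CPM (233 to 240), and Cdk5r1 in WT M2 of E17.5 in Neurod6-detected cells, at 316 CPM (277 to 280).

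Gad2-detected cells, the smallest pool, gave the remaining 7. Rnd2 was high in het M1 of E16.0, at 188 CPM (90.5 to 101), and in WT F2 of E17.5, at 144 CPM (60.1 to 67.7). Rnd3 was low in WT F2 of E16.0, at 65.1 CPM (104 to 110), and in WT F1 of E17.5, at 62.5 CPM (109 to 118). Reln was high in het F1 of E16.0, at 23.1 CPM (13.8 to 15.3). Dclk1 was low in het M1 of E16.0, at 153.5 CPM (231 to 243), and Cdk5r1 in het M1 of E17.5, at 228 CPM (321 to 335).

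The change from E12.5 to E17.5 differed between Neurod6- and Sox2-detected cells, by edgeR's quasi-likelihood test of the difference itself, for 7 genes. The pools share cells and embryos, so the p-values and SEs of this test are too small. The log2 difference (Neurod6 pool minus Sox2 pool) was 2.27 for Dab1 and 1.16 for Vldlr. It was -3.55 for Reln (SE 0.39), -2.11 for Rnd2, -2.02 for Dcx, -1.73 for Rnd3 and -1.56 for Cdk5r1. The share of Sox2-detected cells with a Neurod6 UMI was 15.6% at E12.5 and 45.5% at E17.5, and that of Neurod6-detected cells with a Sox2 UMI was 37.1% and 10.9%. Their part in these differences was not tested.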

How the results depend on the processing

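Under the alternatives that kept all libraries or left out a named set, 532 of the log2 fold changes kept their direction and side of the threshold, 39 passed only then, 24 no longer passed and 17 changed sign. For Reln in WT Eomes-detected cells (0.22 between E12.5 and E17.5) the value was -0.0387 at 2 marker UMIs, -0.74 in thinned cells and -1.60 without Cajal-Retzius marker cells. In Neurod6- against Sox2-detected cells Reln gave -0.0940 in thinned cells at E16.0 (1.10), and 0.0018 with DESeq2 and 0.58 in exclusive pools at E17.5 (-0.09). Rnd2 in WT Sox2-detected cells was -0.55 in exclusive pools (0.47), and Dab1 there 0.16 (-0.15). Pafah1b1 between E12.5 and E17.5 was -0.0205 without the low-count filter and -0.20 without the 3 E17.5 libraries in Sox2-detected cells, and -0.0116 in thinned cells and -0.23 without those libraries in Neurod6-detected cells. In Neurod6- against Sox2-detected cells it was -0.0573 in exclusive pools at E12.5, 0.0109 without the filter and 0.01004 in thinned cells at E14.5, and -0.0013 at 2 marker UMIs at E16.0, and Dclk1 was -0.0410 in thinned cells at E17.5. The causes were not tested.

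Counts of the 10 genes that passed between E12.5 and E17.5 moved in the smaller pools: in WT Eomes-detected cells to 1 in exclusive pools and at 2 marker UMIs, in WT Gad2-detected cells to 1 at 2 marker UMIs, in thinned cells and without the 3 E17.5 libraries, in het Eomes-detected cells to 1 in exclusive pools, and in het Gad2-detected cells to 5 with DESeq2, doublets kept or no filter. Over all genes the shares were 10.7%, 16.5%, 5.56%, 1.07%, 7.55%, 12.9%, 6.96%, 15.2% and 6.25% in that order. For het against WT at E12.5 the count, which turns on Lrp8, became 1 with the replicate block (paired fit) and DESeq2 in Sox2-, Neurod1- and Neurod6-detected cells. It was also 1 without the 3 E17.5 libraries in Sox2- and Neurod1-detected cells, in exclusive Sox2-detected cells and with doublets kept in Neurod1-detected cells (3.92%, 0.392%, 1.3% and 0.249% of all genes). In Eomes-detected cells it fell from 1 to 0 in exclusive pools, at 2 marker UMIs, in thinned cells, without the filter and without Cajal-Retzius marker cells, where 0% to 0.13% of all genes passed. The replicate block changed no other genotype call of the 10 genes among those recomputed.

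Between pools, exclusive pools gave 5 for Eomes against Sox2 at E17.5, 3 for Neurod1 against Eomes and 2 for Neurod6 against Neurod1 at E12.5, and 7 for Neurod6 against Sox2 at E17.5, where 10.7%, 8%, 5.61% and 35% of all genes passed. At 2 marker UMIs the counts were 6 and 4 for Eomes against Sox2 at E16.0 and E17.5, 4 for Neurod1 against Eomes at E16.0, 2 and 2 for Neurod6 against Neurod1 at E14.5 and E17.5, and 5 and 4 for Gad2 against Neurod6 at E14.5 and E16.0 (15.8%, 12.8%, 12.9%, 6.37%, 3.73%, 14.7% and 13.3% of all genes). In thinned cells they were 5 and 5, then 3 and 5 (Neurod1 against Eomes at E16.0 and E17.5), 2 and 1, 2 (Neurod6 against Sox2 at E17.5) and 5 (Gad2 against Neurod6 at E14.5), with 11.3%, 9.31%, 12.1%, 11.7%, 3.7%, 1.71%, 20% and 13.6% of all genes. Gad2 against Neurod6 at E16.0 gave 1 in WT libraries (8.78% of all genes), and Neurod6 against Neurod1 at E16.0 gave 1 without Cajal-Retzius marker cells (3.78%). The share over all genes rose with the count in exclusive pools and at 2 marker UMIs.

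With each library left out in turn, the count for het against WT at E12.5 ran from 0 to 2 in the Sox2, Eomes, Neurod1 and Neurod6 pools (2 only without het M2 of E12.5), and that for WT Gad2-detected cells from 0 to 3. The share over all genes was not kept for these fits. The Reln change in WT Eomes-detected cells ran from -0.0763 to 0.46, and that of Pafah1b1 from -0.16 to 0.10 in Sox2- and from -0.20 to 0.14 in Neurod6-detected cells. Exclusive pools gave no stage or genotype value for Neurod1-detected cells and none for the WT course of Gad2-detected cells from E12.5, because too few libraries reached 20 cells. Few UMIs limit Reln outside Cajal-Retzius cells. Cell number limits the Gad2 pool at E12.5, with 4 to 73 cells per WT library and 0 to 93 per het library. The het libraries of E12.5 other than M2 were shallower than the WT libraries.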

Other observations

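Cells with a Trp73 UMI held the migration genes as well as Reln. Their Dclk1 level was 123 ± 9.31 CPM (SD, n = 4) in WT at E12.5 and 78.6 ± 27.2 CPM at E17.5, and Rnd3 read 53.7 ± 9.52 and 39.3 ± 19.4 CPM. Rnd2 was at 87.7 ± 32.6 CPM at E12.5, below the 229 to 300 CPM of WT Neurod6-detected cells, and at 37.1 ± 26.5 CPM at E17.5. Dcx had WT means of 181, 140, 145 and 110 CPM over the 4 stages. Of the receptors, Lrp8 read 25.9 ± 26.2 and 46.2 ± 25.5 CPM at the first and last stage, and Vldlr read 11.2 ± 3.71 and 3.24 ± 2.53 CPM on 0 to 11 UMIs per library. These pools held 7 to 79 cells per library, so single libraries rest on few UMIs, and no test was run on them.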
